A study of Zea mays with 57 samples.

Results

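In the maize seedling shoot, 9 genes stood lower than at the start of the experiment in both media, with and without nitrogen, from 45 to 120 min after transfer. They were chosen from the measured levels. A level here is counts per 1000000 counts of a library (CPM), and each group was placed on a log2(mean CPM + 1) scale. A gene was taken when the average of its 45, 60, 90 and 120 min groups was at least 0.8 below the start group on that scale, in nitrogen and also in KCl, when its mean was at least 5 CPM, and when it was not a regulator in the authors' network table. The count table holds 46335 genes, of which 15194 nuclear genes met the level and regulator conditions, and 9 of these passed both thresholds, which is 0.0592%. The genes carry only identifiers of the AGPv4 annotation. The reference table of names follows another assembly, and 0 of the 44146 nuclear identifiers searched occur in it, so no name or function is given for any of them. Promoter and protein sequences were not used here.

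The samples were shoots of 10-day-old seedlings of the inbred line B73. All seedlings had lost their endosperm on day 8 and had been kept without nitrogen for 2 days. In the morning they were moved to fresh solution with 20 mM KNO3 and 20 mM NH4NO3 in MS medium, 10% of it labelled with 15N (called nitrogen here), or with 20 mM KCl (called KCl, labelled noN). Each medium was sampled early (5, 10, 15, 20 and 30 min) and late (45, 60, 90 and 120 min), and the start group, also labelled noN, at transfer. Each of the 19 groups has 3 replicates, each a pool of 3 seedlings, so p-values measure the spread between such pools. Polyadenylated RNA was sequenced from its 3′ end with molecular identifiers. Totals ran from 1057488 to 5684785 counts in the 56 libraries used. The third nitrogen library of 120 min held 8560 counts and was left out, so that group has 2 libraries. Without gene names the identity of the tissue could not be checked against markers.

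As background, the level of a messenger RNA reflects both its synthesis and its decay. When synthesis slows, a short-lived transcript drops within minutes and a stable one only over hours. Shoot transcripts also move with the time of day, with handling and with a change of the root solution. Nitrate and ammonium act in plants as signals as well as nutrients. The comparison with the start spans the transfer, the fresh solution and the passing morning, and these cannot be told apart. In bulk shoots, fewer cells of a type and less RNA per cell cannot be told apart either.

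The 9 genes lie on 7 chromosomes, 3 on the plus strand and 6 on the minus strand. Those on one chromosome are far apart, 9.62 Mb on chromosome 4 and 168 Mb on chromosome 5, and none of the 9 overlaps another gene of the count table, which matters because no strand option was set in the counting. Their exons add up to a median of 1466 bases, against 2243 bases over the 15194 eligible genes, and their median level was 33.3 CPM, against 23.6 CPM. The nitrogen threshold was passed by 43 genes (0.283%) and the KCl threshold by 172 genes (1.13%), the 9 genes included in each. The 9 genes make up 20.9% of the first list and 5.23% of the second. Both differences subtract the same start group, so a high start value moves a gene toward both lists. Nothing is read from this overlap. By the mirrored thresholds, 17 genes stood higher in both media. Of the 177 network regulators with a mean of at least 5 CPM, 0 passed both lower thresholds. The median difference from the start was -0.88 in nitrogen and -1.15 in KCl for the 9 genes, against -0.05 and -0.03 for all eligible genes. Since the thresholds fix this, these values are descriptions and carry no test.

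**Figure D1:**
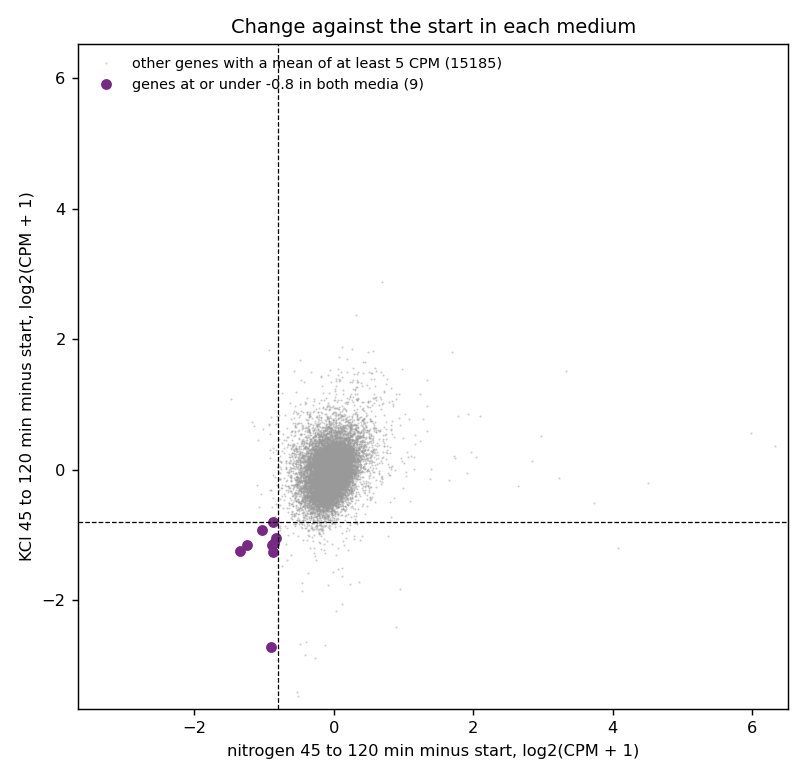
Difference between the 45 to 120 min groups and the start on the log2(CPM + 1) scale, nitrogen on the x axis and KCl on the y axis, for the 15194 nuclear genes with a mean of at least 5 CPM that are not network regulators. Dashed lines mark the thresholds of -0.8; the 9 genes in purple sit in the lower left corner, and one of them, Zm00001d002898, is at -0.89 in nitrogen and far lower, at -2.71, in KCl.

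At the edge of the rule, the nearest genes inside were Zm00001d013406, at -0.88 in nitrogen and -0.80 in KCl, and Zm00001d016841, at -0.82 and -1.04. The nearest outside were Zm00001d025654, at -0.80 and -0.78, and Zm00001d032046, at -0.77 and -0.86. The list also depends on each start library. Without start replicate 1, 2 or 3 the rule finds 10, 11 or 12 genes, of which 5, 5 and 7 are among the 9. Zm00001d013406, Zm00001d016841, Zm00001d045804 and Zm00001d052532 leave it without replicate 1, Zm00001d002898, Zm00001d011183, Zm00001d016841 and Zm00001d023811 without replicate 2, and Zm00001d013406 and Zm00001d052194 without replicate 3. Only Zm00001d028180 stays on the list whichever start library is left out. Start replicate 2 was the lowest of the 3 for 5 of the 9 genes and the highest for 3 of them.

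The 9 genes differ in the time from which the group mean stayed under the lowest start library. For Zm00001d028180, Zm00001d052532, Zm00001d013406 and Zm00001d052194 the group mean stayed under the lowest start library only from 45 or 60 min on in nitrogen and from 30 to 90 min on in KCl. For Zm00001d011183, Zm00001d045804, Zm00001d016841 and Zm00001d002898 it did so in KCl from 5 or 15 min on. Zm00001d002898 is described with Zm00001d023811, since for this pair the difference from the start changed sign in at least 1 medium without start replicate 2. This sorting follows the values themselves, depends on the lowest start library of each gene and was not tested. It is not an order of timing. Against the start mean, Zm00001d052194 already stood at -0.445 in KCl at 5 min and -0.578 at 30 min. Zm00001d011183 stood at -0.374 and -0.682 there. Zm00001d028180 (AGPv4 chromosome 1, 25632515 to 25636718, plus strand, 9 exon blocks) was the most abundant of all. The start libraries had 808, 552 and 780 CPM. Nitrogen groups averaged 821 ± 102 CPM after 5 min and 664 ± 123 CPM after 30 min (SD, n = 3 each). The later nitrogen means were 396 ± 39.7 CPM (45 min), 439 ± 151 CPM (60 min) and 230 ± 27.3 CPM (90 min), and the 2 nitrogen libraries of 120 min had 166 and 149 CPM. KCl groups averaged 696 ± 59.6, 539 ± 31.2, 382 ± 23.2, 410 ± 98.1 and 268 ± 66.4 CPM at the same times, and the KCl libraries of 120 min had 151, 145 and 276 CPM. In both media the lowest mean was at 120 min, and 10 of 11 nitrogen libraries and all 12 KCl libraries from 45 min on lay under every start library.

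Zm00001d052532 (chromosome 4, 192393400 to 192396824, minus strand, 14 exon blocks) had 57.3, 44.4 and 56.2 CPM at the start. In nitrogen it averaged 88.9 ± 37 CPM after 5 min and 72.0 ± 10.3 CPM after 30 min (SD, n = 3). The late nitrogen means were 37.1 ± 25.5 CPM (45 min), 28.7 ± 9.44 CPM (60 min) and 33.1 ± 11.9 CPM (90 min), and the libraries of 120 min had 21.3 and 16.8 CPM. In KCl it averaged 47.2 ± 24 CPM after 5 min and 52.4 ± 10.4 CPM after 30 min, then 36.4 ± 31.7, 22.9 ± 6.67 and 24.5 ± 4.62 CPM at the 3 later times, with 19.5, 7.20 and 17.7 CPM at 120 min. Its mean over 5 to 30 min was 126% of the start mean in nitrogen and 110% in KCl, the highest ratios among the 9 genes in each medium. Libraries of 1 group spread widely at 45 min, from 14.9 to 64.98 CPM in nitrogen and from 9.001 to 71.1 CPM in KCl.

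Zm00001d013406 (chromosome 5, 10497408 to 10501324, plus strand, 7 exon blocks) had 50.4, 26.5 and 47.3 CPM at the start. Over 5 to 30 min it stood at 101% of the start mean in nitrogen and 92.9% in KCl, and over 45 to 120 min at 54.6% and 57.8%. The 11 late nitrogen libraries ran from 11.3 to 30.2 CPM with a median of 24.6, and the 12 late KCl libraries from 12.5 to 40.8 CPM with a median of 23.1. Both ranges reach above the lowest start library, replicate 2, and without start replicate 1 or 3 the gene leaves the list. Zm00001d052194 (chromosome 4, 182772609 to 182773786, minus strand, 2 exon blocks) had 87.5, 44.4 and 100.3 CPM at the start. Its nitrogen groups averaged 69.7 ± 27.8 CPM (20 min), 39.5 ± 13.1 CPM (45 min) and 37.8 ± 9.46 CPM (60 min), with 35.6 and 26.9 CPM at 120 min. Its KCl groups averaged 47.2 ± 5.83, 53.8 ± 8.53 and 56.5 ± 11.6 CPM at those times, with 22.1, 19.7 and 31.8 CPM at 120 min. The group mean stayed under the lowest start library from 45 min in nitrogen and from 90 min in KCl.

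**Figure D2:**
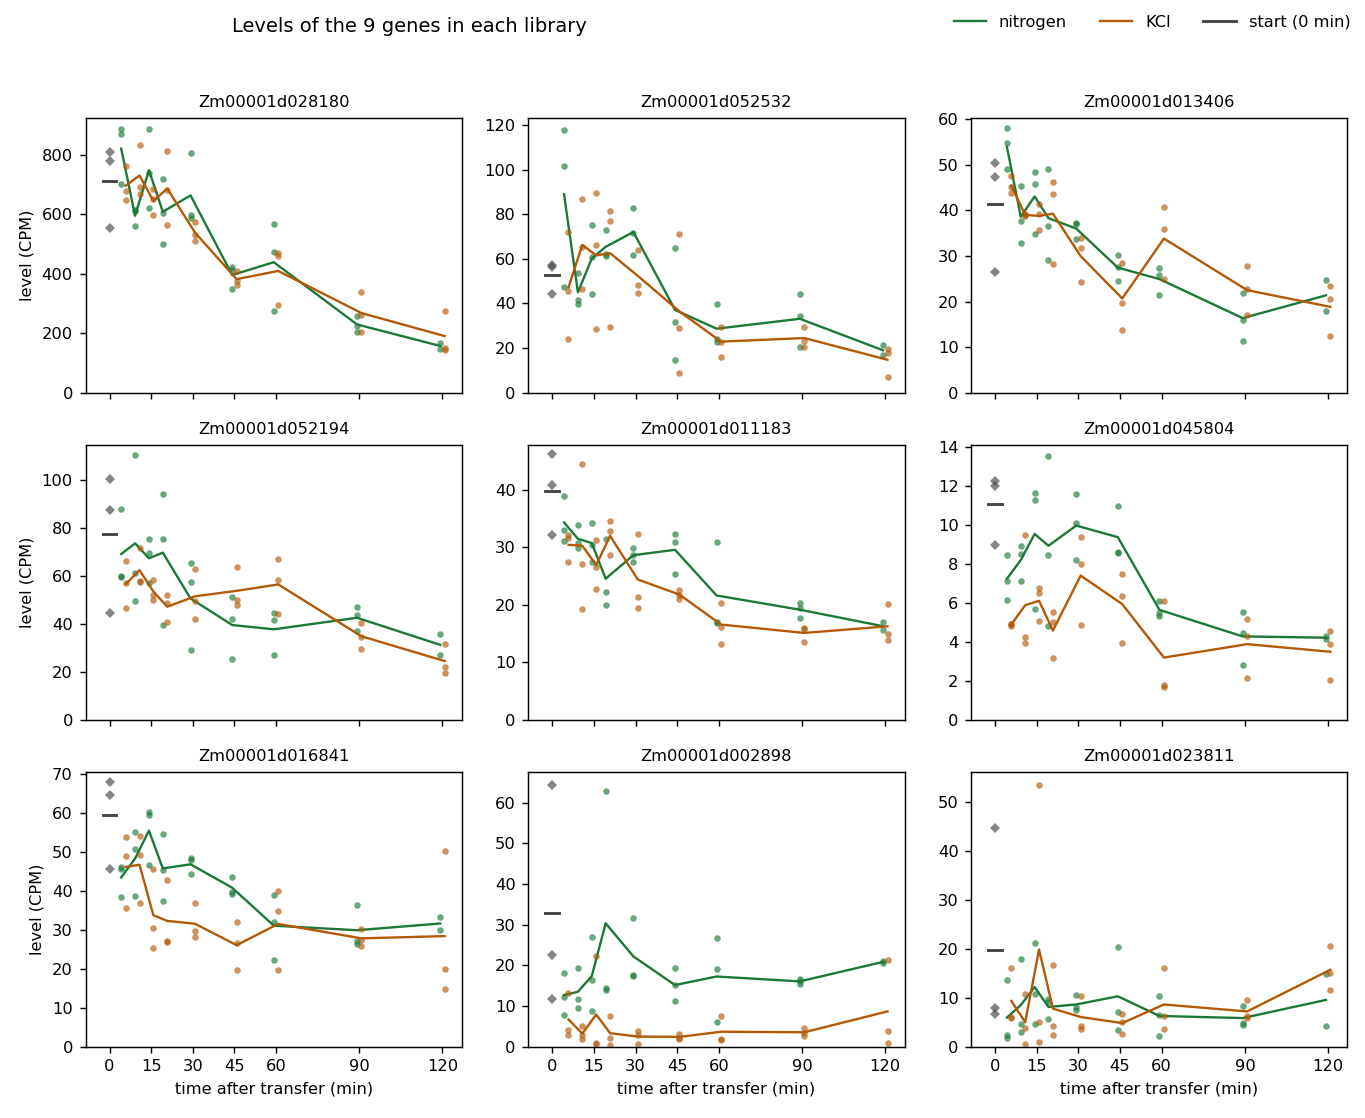
Level in CPM (y axis, from 0) against minutes after transfer (x axis) for the 9 genes; points are single libraries, lines join the means of nitrogen (green) and KCl (orange) groups, grey diamonds are the 3 start libraries and the grey bar is their mean. Zm00001d028180 declines to 157 CPM in nitrogen and 191 CPM in KCl at 120 min, and single high start libraries stand out for Zm00001d002898 (64.4 CPM) and Zm00001d023811 (44.7 CPM).

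Among the genes under their lowest start library early in KCl, Zm00001d011183 (chromosome 8, 142217718 to 142219220, minus strand, 2 exon blocks) had 40.9, 46.2 and 32.1 CPM at the start. Over 5 to 30 min its 15 nitrogen libraries ran from 20.0 to 38.9 CPM with a median of 30.5, and its 15 KCl libraries from 19.2 to 44.4 CPM with a median of 28.6. Over 45 to 120 min the 11 nitrogen libraries ran from 15.6 to 32.4 CPM and the 12 KCl libraries from 13.2 to 22.5 CPM. Of the late libraries, 10 of 11 in nitrogen and 12 of 12 in KCl lay under the lowest start library, and the group mean stayed there from 10 min in nitrogen and from 5 min in KCl. The lowest group means were 16.3 CPM in nitrogen, at 120 min, and 15.1 CPM in KCl, at 90 min.

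Zm00001d045804 (chromosome 9, 40102185 to 40108023, minus strand, 3 exon blocks, 5540 exonic bases) was the least abundant, with 2 to 44 counts in a library. It had 12.2, 8.95 and 12.0 CPM at the start. At 5 min the nitrogen libraries had 8.45, 6.16 and 7.09 CPM and the KCl libraries 4.92, 4.93 and 4.81 CPM. Nitrogen groups then averaged 9.96 ± 1.68 CPM at 30 min and 9.37 ± 1.38 at 45 min before 4.28 ± 1.37 at 90 min, whereas KCl groups averaged 7.40 ± 2.304, 5.93 ± 1.81 and 3.88 ± 1.55 CPM. In nitrogen the mean stayed under the lowest start library from 60 min, and in KCl it was there at all 9 times. Zm00001d016841 (chromosome 5, 178195938 to 178198322, plus strand, 6 exon blocks) had 68.0, 64.7 and 45.6 CPM at the start. All 11 late nitrogen libraries lay under these, between 22.3 and 43.5 CPM, and 11 of 12 late KCl libraries did, between 14.9 and 50.3 CPM. Its nitrogen mean stayed under the lowest start library from 45 min, when it was 40.8 ± 2.33 CPM, and its KCl mean from 15 min, when it was 33.8 CPM (25.4 to 45.5 CPM in 3 libraries).

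Across the 9 genes, every late library lay under every start library for 1 gene in nitrogen, Zm00001d016841, and for 3 genes in KCl, Zm00001d028180, Zm00001d045804 and Zm00001d011183. Over all eligible genes 1.0% did so in nitrogen and 4.51% in KCl, and since the rule used these libraries nothing is read from the shares.

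The remaining pair leaves the list without start replicate 2. The nitrogen mean of Zm00001d002898 was under its lowest start library at 0 of 9 times. The mean of Zm00001d023811 did not stay under its lowest start library in either medium. Zm00001d002898 (chromosome 2, 26127575 to 26129149, minus strand, 3 exon blocks) had 22.5, 64.4 and 11.7 CPM at the start, a range of 5.53-fold. Its 11 late nitrogen libraries ran from 6.12 to 26.6 CPM with a median of 16.6, against a median of 2.94 CPM and a range of 1.03 to 21.3 CPM in the 12 late KCl libraries. Without start replicate 2 the difference from the start was 0.01 in nitrogen, and the gene was then not lower there. Zm00001d023811 (chromosome 10, 22869495 to 22870557, minus strand, 2 exon blocks) had 8.02, 44.7 and 6.71 CPM at the start. Its late libraries ran from 2.16 to 20.5 CPM in nitrogen and from 2.66 to 20.5 CPM in KCl, and 6 of 11 and 6 of 12 of these were under the lowest start library. Without start replicate 2 it was 0.08 above the start in nitrogen and 0.17 above it in KCl. Single libraries elsewhere were high too: in KCl at 15 min replicate 3 had 53.7 CPM of Zm00001d023811, where replicates 1 and 2 had 5.07 and 0.963, and it had 22.2 CPM of Zm00001d002898, where they had 0.921 and 0.642.

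**Figure D3:**
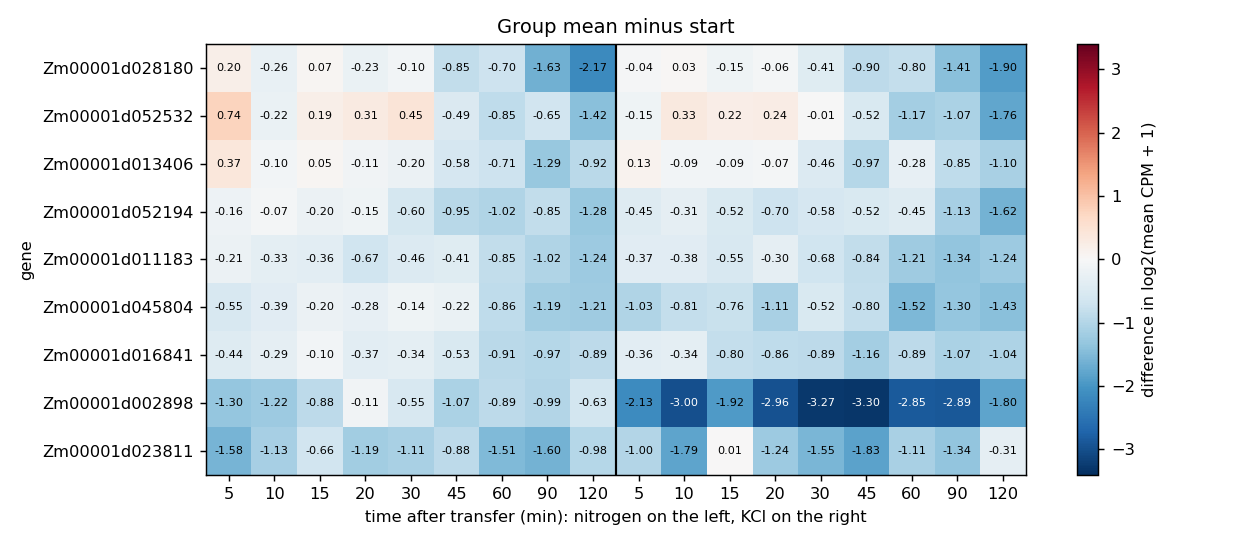
Difference of each group mean from the start mean in log2(mean CPM + 1), for the 9 genes (rows) at 9 times in nitrogen (left) and KCl (right). From 45 min on all 9 genes are below 0 in every group; before 45 min values run from -1.58 to 0.75 in nitrogen and from -3.27 to 0.33 in KCl.

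The course before 45 min was measured in 30 libraries that did not enter the differences from the start, although they did enter the mean of at least 5 CPM that the rule asks for. The tests compare these libraries. The first question was whether the levels were already moving from 5 to 30 min. A change completed by 5 min does not enter these trends. At 5 min the group mean was below the start mean for 6 of the 9 genes in nitrogen and 8 in KCl. Over all eligible genes the median difference at 5 min was -0.059 in nitrogen and 0.005 in KCl. The difference at 5 min was not tested, since the start libraries were used to choose the genes. Nothing is read from the 6 and the 8. In nitrogen 0 of the 9 genes had a called downward trend, against 0.0799% of all 18771 genes tested, and 1 passed an unadjusted p of 0.05. In KCl it was again 0 of 9, against 0.00533% of all genes, with 2 at an unadjusted p under 0.05, and DESeq2 also called 0 in either medium. Both percentages are for adjusted calls. The share of all genes at an unadjusted p under 0.05 was not counted, so nothing is read from member counts at that cut. No member was called upward, and of all 18771 genes only 41 were in nitrogen and 45 in KCl. The strongest downward estimates by p were those of Zm00001d013406, with a log2 change over the 25 min of -0.50 in nitrogen (SE 0.200, adjusted p = 0.459 by edgeR's quasi-likelihood test) and of -0.52 in KCl (SE 0.211, adjusted p = 0.453). Zm00001d016841 was at -0.59 in KCl (SE 0.240, adjusted p = 0.455). Estimates for the 9 genes ran from -0.50 to 0.98 in nitrogen, with a median of 0.01, and from -1.21 to 0.38 in KCl, with a median of -0.29. Medians over all genes were -0.01 in each medium. The SE of these estimates ran from 0.187 to 1.102, widest for Zm00001d002898 in KCl. The estimate of -1.21 in KCl was that gene's and was not called (adjusted p = 0.843 by the same test). Small trends, and for some genes falls as large as the 0.8 of the rule, were thus not detectable at this depth and number of replicates. The 0 calls do not show that the levels were steady.

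The second question was whether the early trends of the media differed. None of the 9 differences was called by edgeR or by DESeq2, and 0 had an unadjusted p under 0.05. Of all genes, 0.101% had a higher trend in nitrogen and 0.00533% a lower one. The differences ran from -0.26 for Zm00001d052194 (SE 0.352) to 2.19 for Zm00001d002898 (SE 1.23, adjusted p = 0.616).

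The third question was whether nitrogen and KCl differed in mean level over 5 to 30 min. Of the 9 genes 4 were higher in nitrogen, 0 were lower and 5 did not pass. Of all genes, 25.3% were higher and 24.1% lower, so a call was common in general, and 4 of 9 is to be read against these shares. Library totals had a median of 2809128 counts over all nitrogen libraries and 2006288 counts over all KCl libraries, and the part of depth in these differences was not tested. Zm00001d002898 had 7.71 to 62.8 CPM with a median of 16.4 in the 15 nitrogen libraries, against 0.397 to 22.2 CPM with a median of 2.88 in the 15 KCl libraries. The ranges overlap, and 3 of 15 nitrogen libraries, against 13 of 15 KCl libraries, lay under the lowest start library. The log2 change was 2.26 (SE 0.373, adjusted p = 2.01e-06), and in the late libraries, which the choice of genes used, the gene was 1.82 higher in nitrogen on the log2(mean CPM + 1) scale.

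Zm00001d045804 had 4.79 to 13.5 CPM with a median of 8.46 in early nitrogen libraries, against 3.18 to 9.46 CPM with a median of 5.00 in KCl. Its log2 change was 0.67 (SE 0.151, adjusted p = 0.000248). Zm00001d016841 had 37.3 to 60.1 CPM with a median of 46.7 in nitrogen, against 25.4 to 54.2 CPM with a median of 36.8 in KCl, and a log2 change of 0.39 (SE 0.112, adjusted p = 0.00334). For Zm00001d052194 the values were 28.98 to 110.3 CPM with a median of 61.1 in nitrogen, against 40.7 to 71.7 CPM with a median of 52.1 in KCl. Its log2 change of 0.31 (SE 0.119, adjusted p = 0.0268) lost its call when any of 7 single libraries was left out and in the authors' normalized table, with adjusted p-values up to 0.0861. The other 3 called genes kept their calls in each of the 40 alternatives that average the 5 times.

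The remaining 5 genes had log2 changes of 0.07 to 0.16 with adjusted p-values of 0.228 to 0.904, which does not show that their levels were alike. For Zm00001d028180 the estimate was 0.08 with an SE of 0.0918, and for Zm00001d011183 it was 0.09 with an SE of 0.0925. The median over the 9 genes was 0.16, against 0.01 over all genes, and 9 of 9 estimates were above 0, as were 51.6% of all genes. All 9 stayed above 0 with the other size factors and with library totals. Without any 1 of 7 early libraries Zm00001d023811 was below 0. At single times 8, 7, 7, 6 and 9 of the 9 were above 0, at 5, 10, 15, 20 and 30 min. In the late libraries nitrogen minus KCl was between -0.10 and 0.39 for the 8 genes other than Zm00001d002898, and below 0 for 4 of these.

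**Figure D4:**
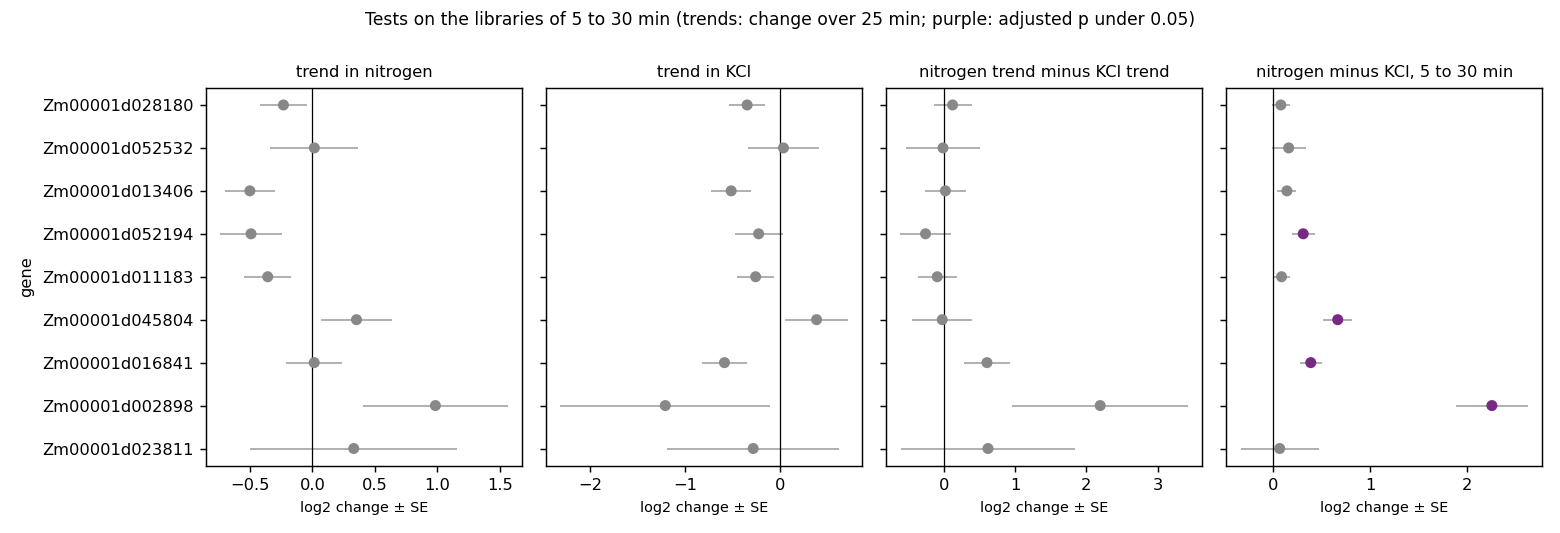
Log2 changes with their SE (x axes) for the 9 genes (rows) in 4 tests on the libraries of 5 to 30 min: the trend over 25 min in nitrogen, the trend in KCl, the difference of these trends, and the mean of nitrogen minus KCl. Purple marks an adjusted p under 0.05, reached by 4 genes in the last panel alone, from 0.31 for Zm00001d052194 to 2.26 for Zm00001d002898.

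Nearby genes were read from the count table. Zm00001d002898 has Zm00001d002897 on the same strand 2097 bases away, which averaged 6.10 CPM and stood at -0.69 in nitrogen and -1.13 in KCl against the start. On its other side, 15746 bases away on the same strand, Zm00001d002899 averaged 1.80 CPM and stood at -0.16 and -1.39. Zm00001d052193, 1170 bases from Zm00001d052194, averaged 6.83 CPM and stood at 0.04 in nitrogen and -0.15 in KCl. Zm00001d013406 has Zm00001d013407 at 1404 bases, with a mean of 0.358 CPM, and Zm00001d013405 at 3175 bases, which averaged 25.8 CPM and stood at -0.09 and -0.27. Of the 9 genes, 3 are targets in the authors' deposited network table (33.3%), against 15.1% of eligible genes. The network table was deposited with these data and its method is not given, so nothing is read from these shares. The highest weight for a member joins the regulator Zm00001d001858 to Zm00001d052194, at 2.71 in the authors' deposited table. For Zm00001d013406 and Zm00001d016841 the highest weights in the authors' deposited table were 1.33 and 1.18.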

How the data were processed

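The authors deposited whole-number counts per gene, not normalized. STAR 2.7.6a, fastp 0.21.0, featureCounts 2.0.1 and UMI-tools 1.1.1 are named, with no role or order, in the submitters' processing notes. Per the file headers, counting used featureCounts 1.5.1 and release 37 of the AGPv4 annotation, with no strand option. The authors' deposited normalized values, named as quantile-normalized and rounded to whole numbers, were treated as a score. So were the deposited network weights, for which the sources used here give no method. Columns of the count table that match no labelled sample numbered 2 and were not used.

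CPM were taken over whole library totals. The test was edgeR 4.0.16 under R 4.3.3 (TMM, filterByExpr, quasi-likelihood F test, two-sided) on 19 group means over the 56 libraries of over 100000 counts, with 37 residual degrees of freedom and Benjamini-Hochberg adjustment over 18771 genes at 0.05. The trend is linear in time, as the log2 change over 25 min. An SE was obtained as the size of the log2 change over √F. DESeq2 1.42.0 and limma 3.58.1 served as alternatives. Replicates differed by more than sampling noise (chi-square per degree of freedom of 1.42 to 8.47). Counts of a member ran from 1 to 4337 in a library, and low counts make a value imprecise.

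The rule for members and the lists were set with earlier results of these data known. The rule for named genes allowed 4 identifiers where no name exists; all 9 are given because they are the whole set. The gene lists and promoter motifs drawn up by name could not be used, since no identifier matched.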

Additional observations from a re-analysis of the deposited data

How the results depend on the processing

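The number of genes by the rule, 9, became 16 with the library of 8560 counts (all 9 among them), 26 with thresholds of -0.6 and 2 with -1.0. It was 10 to 12 when a start library was left out, 7 with TMM-scaled CPM and 6 with means of log values. Without start replicate 2 the difference from the start changed sign for 2 of the genes. Over the 3 settings that leave out a start library it ran from -1.29 to 0.0098 for Zm00001d002898 in nitrogen, and for Zm00001d023811 from -1.64 to 0.075 in nitrogen and from -1.54 to 0.17 in KCl. Of the early differences between the media, 4 were called with each scaling, filter and covariate run and by DESeq2, 3 in the authors' normalized table, and 3 to 4 when 1 of 30 early libraries was left out. At single times 0 were called at 5 and at 10 min, and 1 at each of 15, 20 and 30 min. From the earliest to the latest of these times, 1572, 33, 489, 2372 and 1247 of all genes were called higher in nitrogen. Called lower, in the same order, were 1829, 26, 995, 2590 and 1454. Calls were thus rare in general at 10 min, and nothing about the 9 genes is read from the single-time counts. For the lists of -1.0 and -0.6 the counts, over the mean of the 5 times, were 0 of 2 and 15 of 26. These take calls in either direction, and of all genes 25.3% were called higher and 24.1% lower. Of the 9 estimates 8, 7, 7, 6 and 9 were above 0 at 5, 10, 15, 20 and 30 min. Values at single times were kept for only some of the genes. Among these, uncalled estimates changed sign for Zm00001d023811, at -0.46 at 5 min and -0.49 at 15 min. It was also below 0 without any 1 of 7 libraries (range without a library -0.20 to 0.60). The uncalled estimate of Zm00001d052532 changed sign too, at -0.56 at 10 min and -0.0427 at 15 min. Other estimates below 0, at 10 and 20 min, belong to genes not followed this way. The cause was not tested. Trends and their differences gave 0 calls among the 9 genes in every alternative run.

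Replicate numbers of the titles were taken not to pair the samples: correlations of the deviations of same-numbered nitrogen and KCl libraries ran from -0.15 to 0.21, and 9 of 24 nitrogen libraries matched their own number best. With the replicate number as a block the counts of calls were again 4 and 0.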
